A study of Mus musculus with 11 samples.

Results

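The immediate early genes Fos, Fosb, Jun, Junb, Egr1, Ier2, Atf3, Dusp1 and Nr4a1 were followed through the differentiation of E14 mouse embryonic stem cells toward ventral hindbrain. They were taken by symbol from a list of 9 genes, and 9 of the 9 were found among 38197 genes. The sorted libraries, called day 3.5 after their cell status although another label says 3 days, were wild type strain 129 cells selected by sorting on Prominin-1, which neural progenitors carry on their surface. They numbered 3. The other 8 libraries were unsorted wild type 129 cultures grown as a monolayer, 2 each at days 0, 1, 2 and 3, and day 0 was titled as stem cells. The protocol text attached to every sample, day 0 included, gives retinoic acid (RA) and SAG, a Smoothened agonist that activates hedgehog signaling, from day 0 to day 3, with no doses. No label states whether the libraries of 1 day are separate cultures, so p-values measure the spread between these libraries, which may be technical. All cells derive from a single stem cell line.

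Immediate early genes are transcribed within minutes of a stimulus, without new protein synthesis, when kinases such as ERK, JNK and p38 act on transcription factors already present at their promoters. Their mRNAs are short-lived. FOS and JUN proteins pair into the AP-1 transcription factor, EGR1 is a zinc finger factor, NR4A1 is an orphan nuclear receptor, and DUSP1 is a phosphatase that switches the kinases off again. Enzymatic dissociation and cell sorting are known to induce many of these genes, and ERK signaling keeps Egr1 and its relatives active in stem cells.

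The promoters of Fos, Fosb, Dusp1 and Nr4a1 are printed because these genes had the contrasting patterns described below: Fos and Fosb were high in the sorted libraries and in 1 day 0 library, and Dusp1 and Nr4a1 were highest in both day 0 libraries. Promoter sequences from RefSeq (GRCm38.p6) for 7 of the 9 genes, without Egr1 and Ier2, are covered. The 250 bases before the start site were searched on both strands for 3 motifs. These were TGACG, the core of the cAMP response element, the AP-1 site TGANTCA, and the CArG box bound by SRF. This core was found in 6 of the 7 promoters, against 17.7% of 32817 promoters, and in Dusp1 a pair of copies overlap as TGACGTCA. The AP-1 site was in 0 of the 7 (6.75% of all promoters) and the CArG box in 0 (1.47%). Egr1 and Ier2 are not among the 7, and sequence beyond the 250 bases was not searched. No absence of these sites from the 9 genes is therefore shown. Capitals mark TGACG or, on the other strand, CGTCA. The lines below run 5′ to 3′ on the strand of each gene and end at the base before its start.

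Fos: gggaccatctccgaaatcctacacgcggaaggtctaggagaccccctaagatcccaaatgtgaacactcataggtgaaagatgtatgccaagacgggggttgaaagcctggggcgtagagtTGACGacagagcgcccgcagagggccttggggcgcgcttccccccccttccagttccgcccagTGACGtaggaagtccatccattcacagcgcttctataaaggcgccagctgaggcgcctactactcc

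Fosb: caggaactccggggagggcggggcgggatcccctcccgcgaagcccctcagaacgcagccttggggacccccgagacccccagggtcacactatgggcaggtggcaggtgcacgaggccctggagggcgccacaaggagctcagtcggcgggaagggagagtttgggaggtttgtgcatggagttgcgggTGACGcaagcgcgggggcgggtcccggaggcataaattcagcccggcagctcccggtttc

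Dusp1: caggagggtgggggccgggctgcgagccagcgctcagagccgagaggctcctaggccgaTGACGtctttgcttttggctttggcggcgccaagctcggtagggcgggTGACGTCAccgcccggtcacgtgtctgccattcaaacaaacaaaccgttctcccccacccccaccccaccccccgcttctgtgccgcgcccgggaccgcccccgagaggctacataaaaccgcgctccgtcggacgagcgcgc

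Nr4a1: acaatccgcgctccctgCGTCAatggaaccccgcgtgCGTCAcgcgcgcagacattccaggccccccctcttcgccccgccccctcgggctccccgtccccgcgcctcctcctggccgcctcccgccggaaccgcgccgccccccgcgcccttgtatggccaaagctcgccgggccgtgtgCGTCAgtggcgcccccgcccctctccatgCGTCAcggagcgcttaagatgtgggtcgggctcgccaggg

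These windows are chr12:85473640-85473889 on the plus strand for Fos, chr7:19310046-19310295 on the minus strand for Fosb, chr17:26508473-26508722 on the minus strand for Dusp1 and chr15:101266596-101266845 on the plus strand for Nr4a1. Fos held 2 copies of the core, Fosb 1, Dusp1 3 and Nr4a1 4. A match is a description of the letters and not of binding.

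Reads were counted per gene, and no source used here gives the counting strand. In GENCODE M21 on GRCm38, Junb (chromosome 8, 84974484 to 84978718) shares 173 of its 2301 exonic bases with Prdx2 on the other strand, which stood at 72.8 to 365 CPM (counts scaled to the size of the library). Jun (chromosome 4, 95049034 to 95052222) shares 232 of 3189 exonic bases with the antisense gene Junos, and Dusp1 (chromosome 17, 26505590 to 26562128) shares 11 of 3311 with Ergic1. The levels of Junb and Jun are therefore uncertain to that extent. Fos (chromosome 12, 85473890 to 85477273), Fosb (chromosome 7, 19302696 to 19310051), Egr1 (chromosome 18, 34859823 to 34864984), Ier2 (chromosome 8, 84661331 to 84662852) and Nr4a1 (chromosome 15, 101254269 to 101274795) overlap no other annotated gene. Atf3 (chromosome 1, 191170296 to 191218039) overlaps none in its exons.

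Library totals were 13173674 to 17113430 counts in the sorted libraries and 26136331 to 30384599 in the unsorted ones. The sorted libraries also carry another project code in their descriptions, so sorting, the later time, depth and that code cannot be told apart. Prom1 itself stood at 281 to 334 CPM in the sorted libraries and at 214 to 262 CPM at day 3. The summed CPM of 6 neural progenitor markers, Prom1 included, was 1320 to 1580 in the sorted libraries and 962 to 977 at day 3. Nes averaged 892.8 CPM in sorted cells and 586.3 CPM at day 3, and Fabp7 162.1 and 23.9 CPM. Hes5 (5.23 and 4.75 CPM) was slightly higher in mean, while Sox1 (60.9 and 77.5 CPM) and Pax6 (34.7 and 39.1 CPM) were lower. Libraries of the last 3 genes overlapped. For 5 neuron markers the sum was 668 to 1070 in sorted cells and 693 to 787 at day 3, so neuronal transcripts were present in the sort. Pluripotency markers summed to 3.47 to 6.74 CPM in sorted cells and 11.1 to 15.3 CPM at day 3, against 991 to 1050 CPM at day 0. Mesoderm (0.713 to 0.956 CPM in sorted cells, Mesp1 at 0) and blood markers (0.221 to 0.972 CPM, Hba-a1 at 0) were near 0, while extraembryonic endoderm markers summed to 84.3 to 101 CPM in sorted cells and 178 to 219 CPM at day 3. Of the endoderm markers, Gata4 averaged 0.983 CPM in sorted cells and 32.8 CPM at day 3. Gata6 (1.66 and 17.9 CPM), Sox17 (0.164 and 7.04), Dab2 (33.4 and 95.3) and Afp (0.476 and 0.787) were also lower in mean. Foxa1 alone was higher in mean, at 55.3 CPM in sorted cells and 44.8 CPM at day 3. Fibroblast markers summed to 42.4 to 62.6 CPM in sorted cells and 65.4 to 97.2 CPM at day 3, and endothelial ones to 8.01 to 14.3 CPM in sorted cells and 16.2 to 18.5 CPM at day 3. In these bulk samples, fewer cells of a type and less RNA per cell cannot be told apart.

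**Figure D1:**
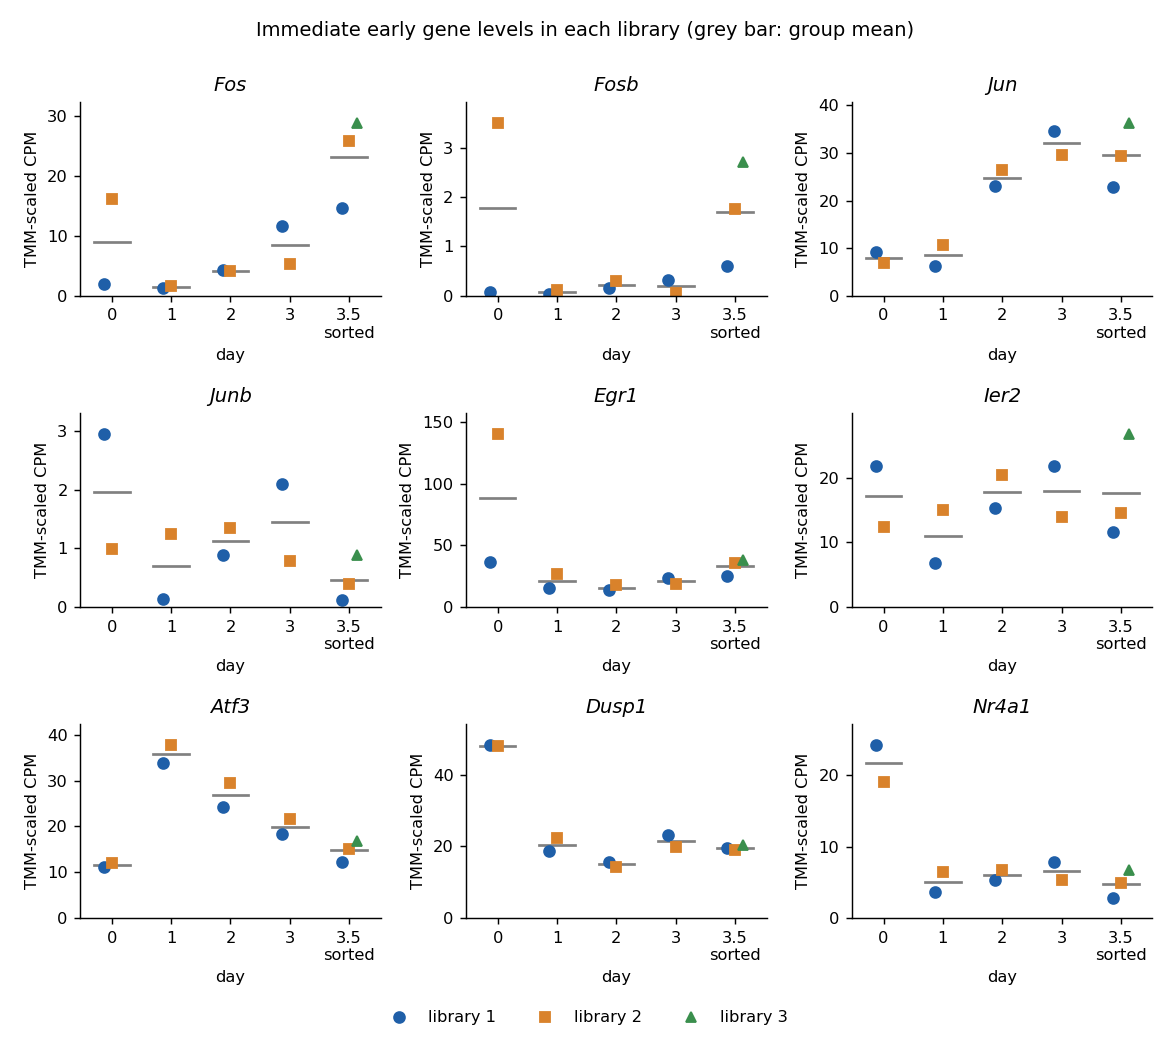
TMM-scaled CPM of the 9 genes (linear y axes from 0) in each library, by day on the x axis. Symbols are libraries and grey bars are group means. Mean Fos was highest in the sorted libraries, Jun was higher from day 2 on, Atf3 was highest at day 1, and Dusp1 and Nr4a1 were highest at day 0.

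Levels are CPM scaled by TMM factors, which correct for differences in library composition. Over the unsorted libraries, the highest was 20.5-fold the lowest for Junb, 12.7-fold for Fos and 3.22-fold for Ier2, and no such ratio is given for Fosb, whose lowest library held 1 count. Fos, the partner of JUN proteins in AP-1, had 1.97 and 16.1 CPM in the day 0 libraries, 1.26 and 1.59 in those of day 1, 4.24 and 4.18 in those of day 2, 11.5 and 5.23 in those of day 3, and 14.6, 25.8 and 28.8 CPM in the sorted libraries. The sorted libraries lay above all unsorted ones except the second library of day 0, which lay above the lowest sorted library. Fosb, its close relative, was near the detection limit, with 2 and 82 counts in the day 0 libraries, 1 and 4 in those of day 1, 4 and 8 in those of day 2, 10 and 2 in those of day 3, and 10, 27 and 37 counts in the sorted libraries. In CPM the second day 0 library was again the highest of the 11 for Fosb, at 3.51, followed by the sorted libraries at 2.72, 1.75 and 0.598.

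Jun, the founding JUN family gene, was higher from day 2 on. It had 9.11 and 6.89 CPM in the day 0 libraries, 6.31 and 10.6 in those of day 1, 23.2 and 26.4 in those of day 2, 34.6 and 29.5 in those of day 3, and 22.8, 29.4 and 36.4 CPM in the sorted libraries. Libraries from day 2 on did not overlap those of days 0 and 1. Junb, a JUN family member that can oppose Jun, was sparse throughout. Day 0 libraries held 87 and 23 counts, day 1 libraries 4 and 40, day 2 libraries 24 and 37, day 3 libraries 67 and 24, and the sorted libraries 2, 6 and 12. The 2 counts of the lowest sorted library lie under the limit of 3 counts used here as a floor, and the ranges of all neighboring groups overlapped.

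Egr1, a zinc finger factor induced through ERK and SRF, had 36.5 and 140.3 CPM at day 0. Day 1 libraries had 15.0 and 26.8 CPM, day 2 libraries 13.7 and 17.4, day 3 libraries 23.6 and 18.8, and the sorted libraries 25.3, 35.3 and 38.4 CPM. Both day 0 libraries lay above every later unsorted library, but they differed more from each other than later days did. Nr4a1, the orphan nuclear receptor, had 24.2 and 19.1 CPM at day 0 and 2.81 to 7.86 CPM in the other 9 libraries, without overlap. Dusp1, the MAP kinase phosphatase, had 48.3 and 47.9 CPM at day 0 and 14.2 to 23.1 CPM afterwards. These day 0 libraries were nearly equal for Dusp1, unlike for Egr1.

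Atf3, a stress-induced factor of the ATF/CREB family, had the opposite course. Day 0 libraries had 11.2 and 12.1 CPM, day 1 libraries 33.8 and 37.8, day 2 libraries 24.3 and 29.5, day 3 libraries 18.3 and 21.6, and the sorted libraries 12.3, 15.2 and 16.8 CPM. Its groups followed each other downward from day 1 without overlap. Ier2, a nuclear protein of the immediate early response, had 21.8 and 12.3 CPM in the day 0 libraries, 6.78 and 15.0 in those of day 1, 15.3 and 20.4 in those of day 2, 21.9 and 13.9 in those of day 3, and 11.7, 14.5 and 26.8 CPM in the sorted libraries. Every group overlapped at least 1 neighbor.

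Levels between genes are compared in the deposited FPKM, which are scaled to transcript length and depth. At day 0 Egr1 (19.7 ± 15.4 FPKM, SD, n = 2) and Dusp1 (18.1 ± 1.89) led, followed by Ier2 (8.60 ± 3.95), Nr4a1 (6.27 ± 1.49), Atf3 (5.16 ± 1.32), Fos (2.96 ± 3.10), Jun (1.77 ± 0.471), Junb (0.801 ± 0.627) and Fosb (0.314 ± 0.426). No gene in that order differed from the next beyond their spread except Dusp1 from Ier2. In the sorted libraries the order was Ier2 (9.99 ± 4.91 FPKM, SD, n = 3), Fos (9.37 ± 3.16), Egr1 (8.55 ± 2.06), Dusp1 (8.49 ± 0.263), Atf3 (8.25 ± 1.88) and Jun (7.36 ± 1.97), and neighbors in that order lay within their spread. Nr4a1 (1.56 ± 0.656), Fosb (0.354 ± 0.241) and Junb (0.214 ± 0.184) were lower than those 6, beyond the spread, and the last pair did not differ beyond their spread. By mean FPKM, Fos stood at percentile 33.6 of the genes above 0 at day 1 and at percentile 61.6 in the sorted libraries.

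The day 0 libraries split along the FOS and EGR genes. On the log2 CPM scale, library 2 was above library 1 by 2.98 for Fos, 4.60 for Fosb and 1.94 for Egr1. A larger absolute difference was seen in 0.112%, 0.00587% and 1.42% of 17030 genes. The same library was lower for Junb (-1.51) and Ier2 (-0.82), and close to the other for Dusp1 (-0.01), Atf3 (0.11), Nr4a1 (-0.35) and Jun (-0.40).

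GC content moved with part of these differences. In the tenth of genes highest in transcript GC content (57.7% or more), the median difference between library 2 and library 1 was -0.75 at day 0, 0.88 at day 1, 0.21 at day 2 and -0.25 at day 3. Junb (62.6% GC) differed by -1.51, 2.57, 0.55 and -1.35 on those days and Ier2 (60.9% GC) by -0.82, 1.14, 0.41 and -0.65, with the same signs as those medians. At day 0 Fos (51.9% GC), Fosb (56.0%) and Egr1 (57.3%) went the other way. The part of GC content in the differences of these genes was not tested beyond an offset for it, given with the comparisons it changed.

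**Figure D2:**
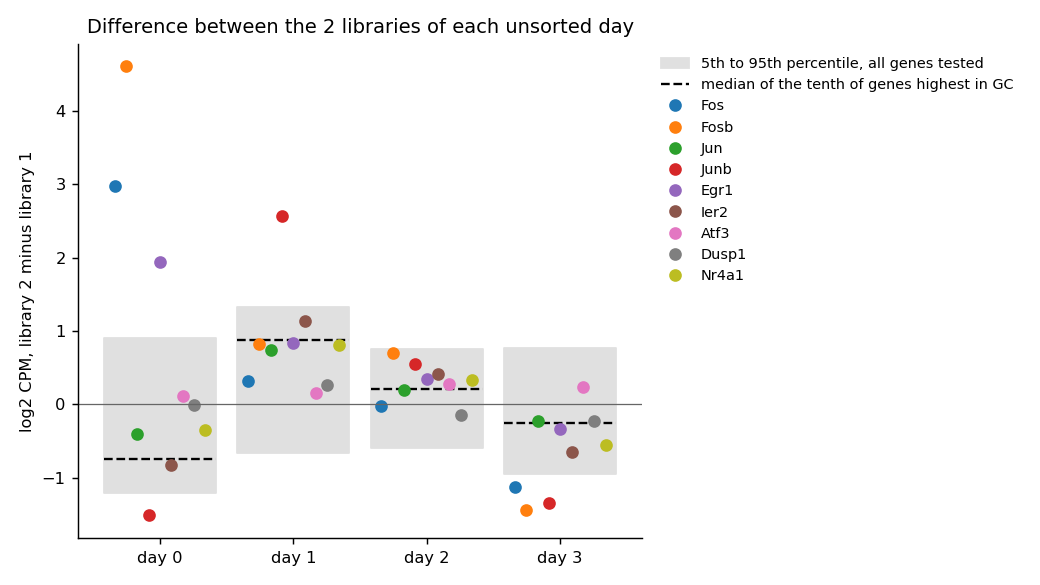
Log2 CPM of library 2 minus library 1 (y axis) at each unsorted day (x axis) for the 9 genes (points), with the 5th to 95th percentile of all genes tested (grey) and the median of the tenth of genes highest in GC (dashed). At day 0 Fos, Fosb and Egr1 lie far above the band at 2.98, 4.60 and 1.94, while Junb lies below it at -1.51.

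The opening day of differentiation was examined by comparing day 1 with day 0. Nr4a1, Dusp1, Egr1 and Fos fell, and Atf3 rose. Nr4a1 averaged 5.01 ± 1.98 CPM at day 1 and 21.6 ± 3.66 CPM at day 0 (SD, n = 2 each), a log2 fold change of -2.11 ± 0.35 (SE, edgeR quasi-likelihood adjusted p = 0.00395). Dusp1 averaged 20.5 ± 2.73 CPM at day 1 and 48.1 ± 0.30 CPM at day 0 (log2 fold change -1.23 ± 0.20, adjusted p = 0.00354 by edgeR). Atf3 averaged 35.8 ± 2.79 CPM at day 1 and 11.7 ± 0.638 CPM at day 0 (log2 fold change 1.62 ± 0.21, adjusted p = 0.00141 by edgeR). Egr1 fell (log2 fold change -2.08 ± 0.54, adjusted p = 0.0261 by edgeR) and so did Fos (-2.64 ± 0.82, adjusted p = 0.0489).

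In all, 1 of the 8 genes tested rose and 4 fell, where 20.9% of 16811 genes passed, 12.0% upward and 8.91% downward. Jun (log2 fold change 0.08, adjusted p = 0.871), Ier2 (-0.65, adjusted p = 0.31) and Junb (-1.48, adjusted p = 0.259) were not called by edgeR. Fosb did not pass the filter on low counts over the 8 unsorted libraries, so it has no call over days 0 to 3. Where another setting kept it, its lower level at day 1 rested on the second day 0 library. That library held 82 counts, against 2 in the first and 1 and 4 at day 1. The log2 fold change was -4.33 without the count filter (adjusted p = 0.00229 by edgeR) and -4.48 by DESeq2 (adjusted p = 0.00855). With all 11 libraries in the fit, which kept it through the sorted ones too, it was -4.32 (adjusted p = 0.0491 by edgeR). The fit without the first day 0 library gave -5.33 and kept Fosb only through the second. On the deposited log2 values and on unfiltered log2(FPKM + 1) limma did not call it (adjusted p = 0.305 and 0.631). The calls of Fosb are therefore not counted. The median log2 fold change of the 8 was -1.35, against 0.01 over all genes tested. The calls of Egr1 and Fos rested on the second day 0 library. Without it the log2 fold change of Egr1 was -0.80 (adjusted p = 0.163) and that of Fos -0.46 (adjusted p = 0.59), both by edgeR. The call of Fos was also lost without any other single library except the first of day 0 (log2 fold change -2.82 to -2.49, adjusted p 0.0651 to 0.135 by edgeR). The call of Egr1 was lost without the first day 1 library (adjusted p = 0.0941) and without either day 3 library (0.05 and 0.0505). Junb was called without the second day 1 library (log2 fold change -3.75, adjusted p = 0.0425 by edgeR). Egr1 and Fos were not called by limma on the deposited log2 values (adjusted p = 0.0634 and 0.158) or on any FPKM setting. Fos was not called with a block for replicate number either (adjusted p = 0.0914 by edgeR). With a GC offset, edgeR also called Ier2 (log2 fold change -0.91, adjusted p = 0.00443) and Junb (-1.84, adjusted p = 0.0394) lower at day 1.

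**Figure D3:**
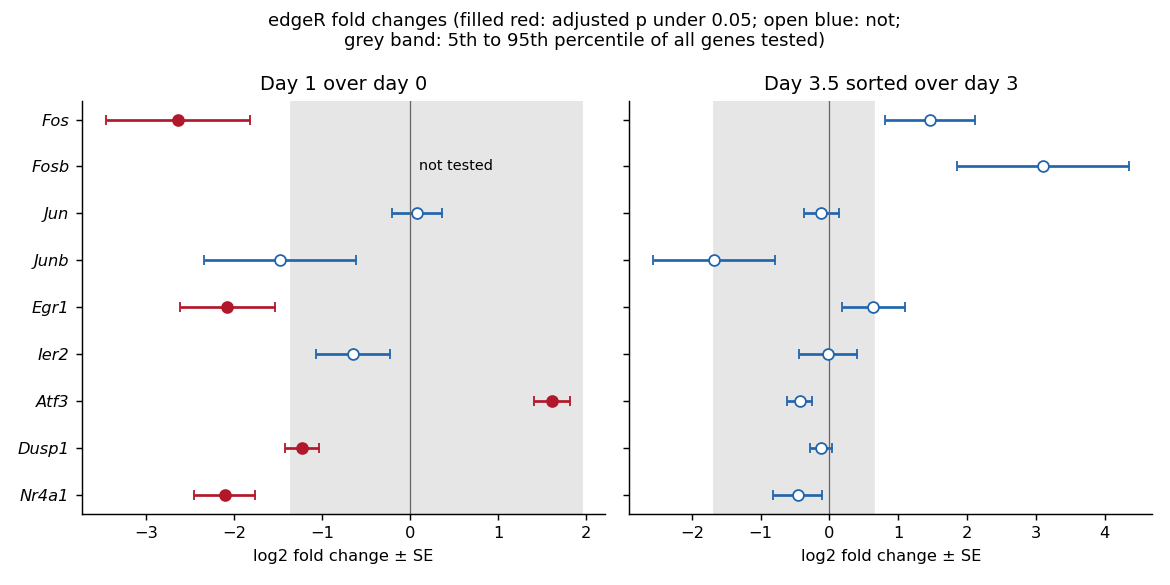
Log2 fold changes with SE (x axis) from edgeR for the 9 genes (rows), at day 1 over day 0 (left) and in the day 3.5 sorted libraries over day 3 (right). Fosb was not tested at day 1. Filled red points have an adjusted p under 0.05, and grey bands hold the 5th to 95th percentile of all genes. At day 1 Atf3 lies at 1.62 and 4 genes lie at -1.23 or below with a call, while on the right no gene has one and Fos and Fosb lie at 1.46 and 3.10.

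Jun was called at day 2 against day 1 and was the sole member called there, where 19.6% of 16811 genes passed. It averaged 24.8 ± 2.31 CPM at day 2 and 8.47 ± 3.05 CPM at day 1 (SD, n = 2 each; log2 fold change 1.55 ± 0.29, adjusted p = 0.00647 by edgeR). Fos stood at 4.21 ± 0.0411 CPM at day 2 and 1.43 ± 0.234 CPM at day 1, but its adjusted p was 0.198, and it was 0.0243 or 0.0278 without the first or the second day 0 library. Day 0 is not part of that comparison but shares its estimate of spread. Ier2, at 17.8 ± 3.56 CPM at day 2 and 10.9 ± 5.81 CPM at day 1, had an adjusted p of 0.254 by edgeR, and of 0.0395 without the second day 1 library. With a GC offset its log2 fold change of 0.71 became -0.02. That offset also brought Atf3 (log2 fold change -0.54, adjusted p = 0.039) and Dusp1 (-0.69, adjusted p = 0.0118) to an edgeR call, both lower at day 2. Without it they stood at -0.41 (adjusted p = 0.179) and -0.45 (adjusted p = 0.133). Junb (0.66, adjusted p = 0.622), Egr1 (-0.42, adjusted p = 0.594) and Nr4a1 (0.26, adjusted p = 0.617) were not called by edgeR. Fosb, kept by 12 other settings, was called in 0 of them (adjusted p 0.34 to 1.0). Without the count filter Fos was called (log2 fold change 1.56, adjusted p = 0.0275 by edgeR).

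At day 3 against day 2, edgeR called 0 of the 8 genes, where 4.07% of all genes passed. Dusp1 alone had an unadjusted p under 0.05, with no share over all genes taken at that level. DESeq2 and limma on the deposited log2 values called 0 as well. Dusp1 averaged 21.4 ± 2.39 CPM at day 3 and 15.0 ± 1.07 CPM at day 2 (SD, n = 2 each), with a log2 fold change of 0.52 and an adjusted p of 0.174 by edgeR. The others had log2 fold changes of 1.00 (Fos), 0.45 (Egr1), 0.37 (Jun and Junb), 0.14 (Nr4a1), 0.01 (Ier2) and -0.43 (Atf3), with adjusted p-values of 0.267 to 0.996 by edgeR, and Fosb was called in 0 of the 12 settings that kept it. Over the unsorted course as a whole, the edgeR F test across days called 5 of the 8 (Jun, Egr1, Atf3, Dusp1 and Nr4a1), close to the background of 53.7%. The GC offset added Ier2 (adjusted p = 0.00213) and Junb (adjusted p = 0.0349) to the F test by edgeR. For Fosb, edgeR gave a call there without the count filter (adjusted p = 0.000479) and with all 11 libraries (0.043), as did DESeq2 (0.00566). Its second day 0 library held 82 counts and the other unsorted libraries 1 to 10, so these calls are not counted. At day 3 against day 0, Jun and Atf3 were higher and Egr1, Dusp1 and Nr4a1 lower, again 5 of 8 with a background of 53.9%. Jun averaged 32.0 ± 3.57 CPM at day 3 and 8.0 ± 1.57 CPM at day 0 (log2 fold change 2.0, adjusted p = 0.000462 by edgeR). Nr4a1 averaged 6.60 ± 1.79 CPM at day 3 and 21.6 ± 3.66 CPM at day 0 (log2 fold change -1.71, adjusted p = 0.00266 by edgeR). Dusp1 had a log2 fold change of -1.16 (adjusted p = 0.00106 by edgeR) and Egr1 of -2.05 (adjusted p = 0.0105). Junb (-0.45, adjusted p = 0.665) and Ier2 (0.07, adjusted p = 0.897) were not called by edgeR, but with the GC offset both were called lower at day 3 (-1.54, adjusted p = 0.0391 for Junb, and -0.93, adjusted p = 0.00144 for Ier2). Fosb was called lower without the count filter (-3.16, adjusted p = 0.00538 by edgeR) and by DESeq2 (-3.25, adjusted p = 0.0268). Leaving out the first day 0 library gave -4.16, a fit that kept Fosb only through the second. That second library held 82 counts, the first 2, and those of day 3 held 10 and 2. The groups overlapped and the difference rested on 1 library, so these calls of Fosb are not counted. Day 3 against day 0 shares its libraries with the day-by-day comparisons. The Egr1 difference from day 0 again lost its call without the second day 0 library (log2 fold change -0.78, adjusted p = 0.102 by edgeR), and also without the first or the second day 3 library (0.0579 and 0.0794). Atf3 (log2 fold change 0.78, adjusted p = 0.0106) lost its call without the second day 3 library (0.66, adjusted p = 0.0628). In the F test Egr1 lost its call without the second day 0 library (adjusted p = 0.0768), and Fos, with an adjusted p of 0.0699, was called without either day 0 library (0.00124 and 0.00406). Fos, with 8.38 ± 4.46 CPM at day 3 and 9.01 ± 9.96 CPM at day 0, had a log2 fold change of -0.09, and of 2.09 without the second day 0 library (adjusted p = 0.0122 by edgeR).

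A sorting stress signal was looked for by comparing the sorted libraries with day 3, the nearest unsorted day. None of the 9 genes passed the test in edgeR, and Fos and Fosb had the largest positive fold changes among them. Fos averaged 23.1 ± 7.47 CPM in the sorted libraries (SD, n = 3) and 8.38 ± 4.46 CPM at day 3 (n = 2), a log2 fold change of 1.46 ± 0.66. Fosb averaged 1.69 ± 1.06 CPM in sorted cells and 0.190 ± 0.176 CPM at day 3 (log2 fold change 3.10 ± 1.25). Their adjusted p-values by edgeR were 0.319 for Fos and 0.255 for Fosb, so neither passed. Egr1 had 33.0 ± 6.85 CPM in sorted cells and 21.2 ± 3.41 CPM at day 3 (log2 fold change 0.64, adjusted p = 0.558). The sorted libraries lay wholly above day 3 for Fos and Egr1, as in 14.3% of all genes. Fosb did so too but is not counted, as it passed the count filter only through the sorted libraries. The sorted libraries lay wholly below day 3 for Atf3 alone, as in 19.1% of all genes (14.8 ± 2.29 CPM in sorted cells and 19.9 ± 2.30 CPM at day 3, adjusted p = 0.281 by edgeR).

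Jun, Ier2 and Dusp1 had overlapping libraries. Jun averaged 29.5 ± 6.78 CPM in sorted cells and 32.0 ± 3.57 CPM at day 3. Dusp1 averaged 19.6 ± 0.625 CPM in sorted cells and 21.4 ± 2.39 CPM at day 3, and Ier2 17.6 ± 8.02 CPM in sorted cells and 17.9 ± 5.59 CPM at day 3. Their log2 fold changes were -0.12, -0.13 and -0.02, with SE of 0.25, 0.16 and 0.42, and adjusted p-values by edgeR of 0.892, 0.777 and 0.993. Nr4a1 (-0.46 ± 0.36) and Junb (-1.68 ± 0.88) were on the lower side without a call. In total edgeR called 0 of 9 genes (574 of 17030 genes, 3.37%, passed). Fos and Atf3 had an unadjusted p under 0.05, with no share over all genes taken at that level. Fosb did too but is not counted, as it passed the filter only through the sorted libraries. DESeq2 and limma on the deposited log2 values or on FPKM also called 0. Without the filter on low counts Fos and Fosb passed (adjusted p = 0.0496 and 0.0311 by edgeR, log2 fold changes 1.45 and 3.08). Over all settings their adjusted p-values ran from 0.0496 to 0.669 for Fos and from 0.0311 to 0.795 for Fosb. Their sizes rested on the day 3 libraries, with log2 fold changes of 2.14 and 4.57 without the first and of 1.00 and 2.39 without the second. On unfiltered log2(FPKM + 1) Fosb stood at 0.36. Fosb entered these fits through the sorted libraries, where it is high, so its fold change is a description.

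The sorted libraries themselves were graded. All 9 genes were highest in the library labelled 3, which was the highest of the 3 in 36.2% of genes, and 8 of the 9 were lowest in the library labelled 1, which was the lowest in 38.5% of genes. Both held for these 8, and for 26.6% of genes. The exception was Dusp1, with 19.5, 19.1 and 20.3 CPM. The tenth of genes highest in GC also had its lowest median deviation from the mean of all libraries in the library labelled 1 (-0.20) and its highest in the one labelled 3 (0.46), with 0.15 in the other. The part of GC content in this grading was not tested.

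Set against the equally weighted mean of days 0 to 3, the sorted libraries had Fos and Jun higher and Atf3 and Nr4a1 lower. These 4 of the 8 members that also passed the count filter without the sorted libraries compare with 46.6% of 17030 genes called, and the sorted libraries are those of the comparison above. Fos had 14.6 to 28.8 CPM in sorted cells and 1.26 to 16.1 CPM over the unsorted libraries (log2 fold change 2.32, adjusted p = 0.00131 by edgeR), and it was called under all 21 other settings, with log2 fold changes of 1.81 to 2.85. Fosb had a log2 fold change of 2.54 (adjusted p = 0.0249 by edgeR), but it passed the filter only through the sorted libraries, so a difference was built in and its call is not counted. Its adjusted p by edgeR was 0.0708 without sorted library 2, 0.129 without sorted library 3 and 0.0513 without the second day 3 library. Jun (0.95, adjusted p = 0.00141) and Atf3 (-0.56, adjusted p = 0.00751) were called by edgeR when any 1 library was left out. Nr4a1 (-0.76, adjusted p = 0.0471 by edgeR) lost its call without any single one of 7 libraries, with adjusted p up to 0.202 (sorted library 1 left out). Egr1 was called without the second day 0 library (log2 fold change 0.54, adjusted p = 0.0473 by edgeR), and Dusp1 and Junb without the first day 1 library (-0.32 and -1.67, adjusted p = 0.0478 and 0.0457). With all libraries edgeR gave log2 fold changes of 0.24 for Egr1 (adjusted p = 0.589), 0.17 for Ier2 (0.686), -0.27 for Dusp1 (0.0793) and -1.45 for Junb (0.134). The GC offset brought Dusp1 (-0.30, adjusted p = 0.0321) and Junb (-1.69, adjusted p = 0.0147) to an edgeR call.

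Other immediate early genes were taken from a list of 33 symbols. In the sorted libraries against day 3, 0 of 29 tested rose and 4 fell by edgeR (1 higher and 8 lower at an unadjusted p under 0.05, 1 higher and 5 lower by DESeq2), where 0.435% of all genes rose and 2.94% fell by edgeR. Over all genes DESeq2 called 203 higher and 747 lower. Shares over all genes were not formed for DESeq2 or at an unadjusted p, so those counts are descriptions. The median log2 fold change of the listed genes was -0.31, against -0.01 for all genes tested. Errfi1, a feedback inhibitor of the EGF receptor, averaged 61.7 ± 0.874 CPM in sorted cells and 100.8 ± 10.8 CPM at day 3 (log2 fold change -0.71, adjusted p = 0.00885 by edgeR). Fosl2, a further FOS family gene, averaged 12.4 ± 0.942 CPM in sorted cells and 26.2 ± 2.17 CPM at day 3 (adjusted p = 0.0103), and Klf6 85.6 ± 1.65 CPM in sorted cells and 145.4 ± 4.80 CPM at day 3 (adjusted p = 0.013).

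Of 15 heat shock genes, most of which code for chaperones that dissociation can also induce, 0 rose and 0 fell by edgeR, 1 had an unadjusted p under 0.05 (lower in sorted cells), DESeq2 called 0, and the median was -0.07. Among 20 tested upstream kinases and transcription factors, 0 rose and 0 fell by edgeR, with 2 lower at an unadjusted p under 0.05, 0 by DESeq2 and a median of 0.01. Of 9 feedback targets of ERK, 1 rose and 0 fell by edgeR, with a median of 0.26, and DESeq2 called 4 higher. Over all genes 0.435% rose and 2.94% fell by edgeR, and DESeq2 called 203 genes higher and 747 lower. With no share over all genes formed for DESeq2 or at an unadjusted p, those counts are descriptions. The target called by edgeR was Spry4, an inhibitor of the pathway, at 3.55 ± 0.494 CPM in sorted cells and 1.63 ± 0.0975 CPM at day 3 (adjusted p = 0.0164 by edgeR).

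**Figure D4:**
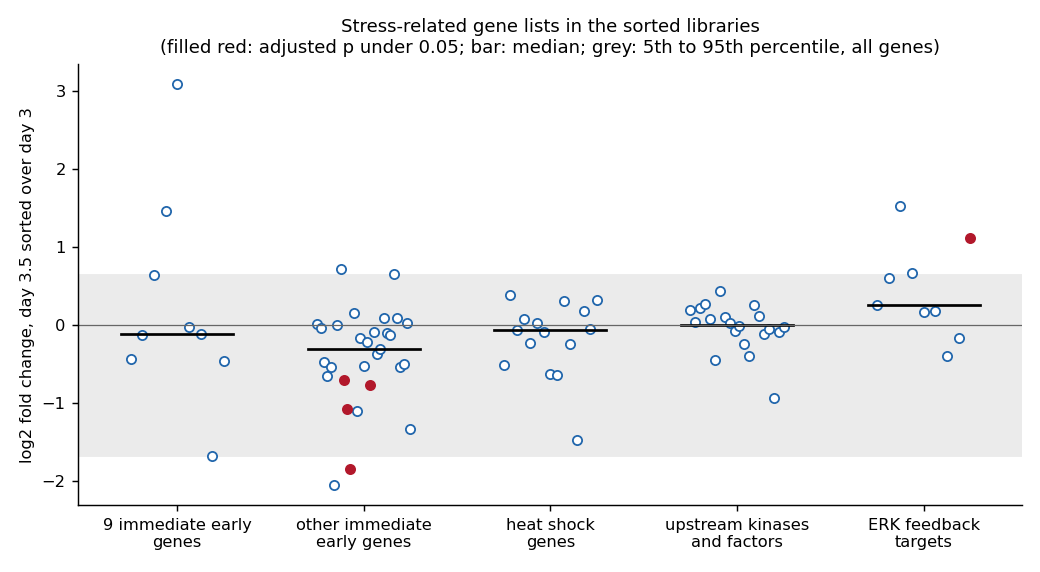
Log2 fold changes of the sorted libraries over day 3 (y axis) for the 9 genes and 4 further lists (x axis), with a point per gene, a bar at each median and the 5th to 95th percentile of all genes in grey. The median of the other immediate early genes lies at -0.31 with 4 called and lower, while heat shock genes center at -0.07.

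At day 1 against day 0 edgeR called 1 of 30 other immediate early genes higher and 11 lower (median log2 fold change -0.92), and DESeq2 1 higher and 15 lower. Over all genes 12.0% were higher and 8.91% lower by edgeR, and DESeq2 called 2096 genes higher and 1648 lower. Sgk1, a serum-induced kinase, averaged 22.6 ± 0.441 CPM at day 1 and 127.9 ± 31.3 CPM at day 0. Myc averaged 11.3 ± 0.565 CPM at day 1 and 57.6 ± 16.5 CPM at day 0, and Socs3, a feedback inhibitor of cytokine signaling, 6.84 ± 1.82 CPM at day 1 and 44.3 ± 11.4 CPM at day 0. ERK feedback targets had 0 of 9 higher and 5 lower by edgeR (median -0.98; DESeq2 0 and 6), and heat shock genes 0 of 15 higher and 4 lower (median -0.45; DESeq2 0 and 5). The upstream kinases and factors had 2 of 20 higher and 1 lower by both tools (median 0.05). At an unadjusted p under 0.05, edgeR had 0 ERK feedback targets and 1 heat shock gene higher. Shares over all genes were not formed at that level or for DESeq2, so those counts are descriptions.

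At day 2 against day 1 edgeR called 9 of the 30 other immediate early genes higher and 2 lower (median log2 fold change 0.46), and DESeq2 10 higher and 2 lower. Over all genes 9.65% were higher and 9.99% lower by edgeR, and DESeq2 called 2056 genes higher and 1832 lower. Myc averaged 43.8 ± 7.85 CPM at day 2 and 11.3 ± 0.565 CPM at day 1, Trib1 28.7 ± 1.16 CPM at day 2 and 10.4 ± 0.984 CPM at day 1, and Ier5 14.4 ± 2.15 CPM at day 2 and 5.59 ± 0.310 CPM at day 1. The ERK feedback targets had 0 of 9 higher and 7 lower by edgeR and by DESeq2 (median -1.20), and 0 higher and 8 lower at an unadjusted p under 0.05. Spry4 averaged 1.27 ± 0.306 CPM at day 2 and 19.5 ± 3.35 CPM at day 1 (adjusted p = 7.43e-05 by edgeR). Heat shock genes then had 1 of 15 higher and 0 lower by both tools, and 2 higher and 1 lower at an unadjusted p under 0.05. At day 3 against day 2, edgeR called 1 of 30 immediate early genes higher (Ctgf) and 1 lower (Myc), where 2.81% of all genes were higher and 1.26% lower. DESeq2 called 6 higher and 2 lower, where it called 918 genes higher and 504 lower over all genes. At an unadjusted p under 0.05 by edgeR, 9 of the list were higher and 2 lower. Counts at that level and by DESeq2 have no share over all genes beside them and are descriptions.

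The members did not share a single course over the 11 libraries. Among pairs of them, Pearson correlations of log2 CPM were highest for Fos with Fosb (0.88), Dusp1 with Nr4a1 (0.85), Egr1 with Dusp1 (0.78) and Junb with Nr4a1 (0.77), and lowest for Egr1 with Atf3 (-0.63). The points share days and libraries, so these values are descriptions. Among 11426 other genes, those most like Jun were Tle3 and Plekhg2 (both 0.99), and those most like Nr4a1 were Bcar3 and Hook2 (both 0.98). For Dusp1 Enox1 (0.97) is given, for Atf3 they were Mfsd7c and Rec8 (both 0.96), and for Junb Tfeb (0.98) and Fam129b (0.96). For Ier2 they were Atpif1 (0.96) and Pold2 (0.95), and for Egr1 Rab7 and Itgb1bp1 (both 0.88). Fos had Akap8l (0.92) and Tmsb4x (0.89), and Fosb Irak2 (0.84) and Dcbld1 (0.80).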

How the data were processed

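Polyadenylated RNA was sequenced in 11 libraries. A ZymoPure kit and Illumina TruSeq preparation with polyA selection were used, per the labels. The submitters' processing notes name TopHat2 2.0.4, HTSeq 0.6.1, limma, Cufflinks 2.1.1, CASAVA and bcl2fastq 1.8.3, and builds GRCm38 and mm10, without roles. No source used here gives the annotation or the counting strand. The authors deposited counts per gene for 38197 genes, of which 104 have fractions, so the table was taken to hold estimated counts and was rounded. The deposited FPKM values are the authors', per length and depth. The deposited log2 values match log2 CPM computed from the deposited counts and library totals with an offset, as checked.

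Counts were tested in edgeR 4.0.16 (R 4.3.3) with TMM scaling, filterByExpr at a minimum count of 10, the quasi-likelihood F test and Benjamini-Hochberg adjustment over all genes tested, with a threshold of 0.05. Days 0 to 3 were fitted on their 8 libraries and the sorted group on all 11. Each SE was derived from the log2 fold change and its F value. CPM used TMM factors over all libraries. Correlations used log2 CPM with a prior count of 2. GC content is that of the longest GENCODE M21 transcript of a symbol (92.7% of genes tested matched). Tests were checked on simulated data. Counts of listed genes at an unadjusted p under 0.05, and those called by DESeq2, have no share over all genes beside them and are descriptions.

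All 9 members are named in every comparison. Of each other list, at most 3 called genes with the smallest adjusted p are named per comparison, and for each member the 2 most correlated genes with at least 5 CPM in 1 library, of which 1 is not reported here. The members and lists were chosen with earlier results of these data known. Of the 33 listed immediate early symbols, 31 are in the table, and Ccn1 and Ccn2 are later names of Cyr61 and Ctgf. The marker genes Tubb3, Foxc2, Hbb-bs and Spi1 were not analysed here, so the neuron, mesoderm and blood sums cover 5, 3 and 2 genes. Other settings were RLE factors, no count filter, DESeq2 1.42.0, another set of libraries fitted, a block for replicate number, a GC offset from lowess (span 0.3) with and without the block, limma 3.58.1 on log2(FPKM + 1) or log2(FPKM + 0.1) with FPKM of at least 1 in 2 libraries, log2(FPKM + 1) unfiltered, limma on the deposited log2 values, CPM without TMM, and leaving out each library. With 2 or 3 libraries per group the precision is limited, and counts under 3 per library were read as a floor that reflects counting error alone.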

Additional observations from a re-analysis of the deposited data

How the results depend on the processing

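Counts of members called moved as follows. At day 1 against day 0 (5 called), 3 were called by limma on log2(FPKM + 1), on log2(FPKM + 0.1) and on the deposited log2 values, and 1 on unfiltered FPKM. There were 7 with the GC offset, and 6 by DESeq2, without the count filter or with all 11 libraries, Fosb included in each 6. At day 2 against day 1 (1 called) there were 2 without the count filter, 3 with the GC offset with or without the replicate block, and 0 on unfiltered FPKM. Sorted against day 3 (0 called) gave 2 without the filter. Unfiltered FPKM gave 2 at day 3 against day 0 and 3 in the F test, and the FPKM settings 2 each for sorted against the mean of days 0 to 3. Upward, day 3 against day 0 (5 called) gave 7 with the GC offset and 6 with the block added. It also gave 6 by DESeq2 or without the filter, Fosb included. Sorted against the mean (5 called, Fosb included) gave 7 with the GC offset and 6 without the filter. Over all genes that offset took day 3 against day 0 from 4642 higher and 4422 lower to 4789 and 5085. Against the mean it took them from 4103 and 3830 to 4578 and 4482. Leaving out 1 library gave 3 to 6, 1 to 2, 0 to 0, 3 to 6, 0 to 0, 3 to 7 and 5 to 7 members called for day 1 against 0, 2 against 1, 3 against 2, 3 against 0, sorted against day 3, sorted against the mean, and any change.

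Over all genes, day 1 against day 0 (3512 called) gave 5840 with the GC offset, 5382 with the block added, 2285 on log2(FPKM + 1) and 1506 unfiltered. Day 2 against day 1 (3301) gave 2194, 2117 and 1390 on log2(FPKM + 1), log2(FPKM + 0.1) and unfiltered FPKM. Day 3 against day 2 (684) gave 1593 without the filter, 395 with the replicate block, 2457 with the GC offset, 2101 with both, 1422 by DESeq2, 1431 with all 11 libraries, 222, 89 and 195 on the FPKM settings, and 444 on the deposited log2 values. Sorted against day 3 (574) gave 986 without the filter, 266 with the replicate block, 1193 with the GC offset, 940 with both, 950 by DESeq2, and 265, 355 and 187 on the FPKM settings. Any change gave 5639 on unfiltered FPKM. Leaving out 1 library gave 2181 to 3016, 998 to 4282, 13 to 956, 6428 to 9668, 184 to 670, 6028 to 8267 and 6655 to 10064 genes, in the order above. The deposited log2 values, without TMM, shifted the median of all genes by 0.15 at day 1 and 0.19 at day 3 against day 0. The share of calls that were higher was 57.3% at day 1, and 72.0% and 71.0% on the deposited log2 values and log2(FPKM + 0.1). At day 2 it was 49.1%, and 35% on unfiltered FPKM. At day 3 against day 2 it was 69.2%, and 53.9%, 79.5% and 56.7% on log2(FPKM + 0.1), unfiltered FPKM and the GC offset. For sorted against day 3 it was 12.9%, and 28.6% with the GC offset.

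Signs turned with the GC offset, without and with the block, for Jun at day 1 against day 0 (-0.013 and -0.017), at day 2 against day 1 for Junb (-0.043 and -0.053), Ier2 (-0.020 and -0.019) and Nr4a1 (-0.20 and -0.20), and for Ier2 at day 3 against day 2 (-0.002 and -0.001) and day 3 against day 0 (-0.93 and -0.93, now called lower, adjusted p = 0.00144 and 0.00311 by edgeR). Fos at day 3 against day 0 became 0.17 with the block, 0.42, 0.70 and 0.42 on the FPKM settings and 0.62 on the deposited log2 values. Sorted against day 3, Ier2 became 0.005 with RLE factors, 0.18 with the GC offset and 0.006 by DESeq2, and Dusp1 0.026 with the GC offset and block. Against the mean, Ier2 became -0.26, -0.081 and -0.27 with the block, the GC offset and both. The cause was not tested. Leaving out 1 library turned the sign of log2 fold changes with ranges of -0.34 to 0.41 for Jun at day 1 against day 0, of -0.15 to 2.93 (Junb), -0.78 to 0.066 (Egr1) and -0.093 to 0.74 (Nr4a1) at day 2 against day 1, of -0.52 to 0.91 (Junb), -0.35 to 0.29 (Ier2) and -0.17 to 0.40 (Nr4a1) at day 3 against day 2, and of -0.93 to 2.09 (Fos), -1.34 to 0.56 (Junb) and -0.28 to 0.54 (Ier2) at day 3 against day 0. Sorted against day 3 they were -0.30 to 0.038 (Jun) and -0.45 to 0.33 (Ier2), and against the mean -0.25 to 0.40 (Ier2).

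Replicate numbers were not taken as pairs. Of 14 correlations between deviations of same-numbered libraries, mirrored values of 2-library days counted once, -0.45 to 0.39, 3 were over 0.1. GC content also differed between libraries and can enter these values, so they cannot settle whether same-numbered libraries share a culture. The replicate block called 4 members at day 1 against day 0, without Fos, and 4 against the mean, without Fosb. It changed no other member call. With 2 or 3 libraries a group, few counts of Fosb and Junb, and GC content differing between libraries, small differences in these genes were not detectable.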
